A study of Macaca mulatta with 22 samples.

Results

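Genes of blood coagulation, fibrinolysis and complement were followed in single ovulatory follicles of rhesus macaques (Macaca mulatta). The 41 genes were chosen by symbol, among the 14132 genes that carried a single symbol in the array's annotation. They code for clotting factors, fibrinogen chains, protease-activated receptors, anticoagulants, plasminogen system proteins and complement components. Each gene is described by its brightest probe set by mean log2 intensity of the 22 arrays, and 23 of the 41 had more than 1 among their 78 probe sets. Some other genes of the same pathways, among them C3, C1R, CD59, F8 and F11, were not analysed here.

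All females were given Acyline, an antagonist of gonadotropin-releasing hormone, together with r-hFSH and r-hLH (30 IU each), once estradiol was at 100 to 120 pg/ml. The 0 h group held 6 follicles taken without the ovulatory hormone. The other groups received 1000 IU of r-hCG, which acts on the luteinizing hormone receptor, and held 4 follicles each at 12 h, at 24 h, at 36 h still unruptured, and at 36 h already ruptured. The sources used here give no age, and they do not state for each array that follicles came from separate animals. Some follicles may therefore share an animal, and the p-values may not measure the spread between animals. Each follicle was frozen whole and gave 1 array. Titles call the samples ovulatory follicles and most descriptions call them developing corpus luteum, and they are called follicles here.

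Coagulation begins when tissue factor, a membrane protein, meets factor VII of the plasma, and it ends with thrombin, which cuts fibrinogen to fibrin and signals to cells through protease-activated receptors. Urokinase opposes the clot by turning plasminogen into plasmin, which digests fibrin and matrix. Complement is a second protease cascade, started by C1 or by the alternative pathway, ended by a membrane-piercing complex and held in check on host cells by CD55 and CD46. At ovulation the follicle wall is opened and its blood vessels become leaky, and most soluble proteins of these cascades reach the follicle from the liver by way of plasma.

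Values are log2 of the deposited intensities, so that 1 unit is a 2-fold difference. A change is called at an adjusted p under 0.05 in limma's moderated test across 52766 probe sets. Array medians lay between 26.1 and 26.7 intensity units, and the number of arrays limits the precision. The median of all log2 values was 4.73, and 15 of the 41 genes had a mean below it. For those 15 the median of the within-group SDs was 1.02, against 0.417 for the other 26, so changes of the dim genes were measured less precisely. The labelled tissue was checked against markers. The summed intensity of 7 granulosa genes, among them CYP19A1 and INHA, was 6087 to 13289 at 0 h, 2352 to 11616 at 12 h, 1472 to 2776 at 24 h, with 1051 to 4171 in unruptured follicles and 5461 to 8968 in ruptured ones. Of 5 theca and smooth muscle genes, 2 were called higher and 2 lower in ruptured follicles against 0 h. STAR averaged 13.35 in ruptured follicles, against 12.41 at 0 h, and CYP17A1 averaged 7.24, against 12.05 at 0 h. In whole follicles, fewer cells of a type and less RNA per cell cannot be told apart.

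Of the 41 genes, 16 differed between the 5 groups in the F test, where 20.1% of all probe sets did. They were F3, F2RL1, F2RL2, F13B, THBD, PROCR, PROS1, TFPI2, PLAU, PLAUR, C1S, CFP, CD55, CFI, C5 and C7. They came from all 8 roles into which the genes were sorted here. F5 was 1 further gene with an unadjusted p under 0.05 in that test, and the 25 genes outside the 16 were called in no comparison.

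At 12 h against 0 h, 9 of the 41 genes were called, where 9.33% of all probe sets were. All 9 rose, against 4.28% of all probe sets called higher. None fell in limma's test, where 5.05% of all probe sets were called lower. At an unadjusted p under 0.05, 13 were higher and 0 lower. The median change of the 41 genes was 0.39, against 0.00 over all probe sets. The 9 were TFPI2, F2RL1, F3, PLAU, CFP, CD55, PROS1, PROCR and THBD, and each of the 9 calls held when any single array was left out. With only the 12 h and 0 h arrays in the fit, 8 of the 9 were called, without PROCR (adjusted p = 0.0636).

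Between 24 h and 12 h only 3 genes were called, where 6.88% of all probe sets were. C1S rose (3.67% of all probe sets were called higher), and F2RL1 and THBD fell (3.2% called lower). With only the 12 h and 24 h arrays in the fit, none of these 3 was called (adjusted p = 0.157 for C1S, 0.0533 for F2RL1 and 0.0575 for THBD), and 1 other, F3, was called lower (adjusted p = 0.0478). The median change of the 41 was -0.18. In unruptured 36 h against 24 h follicles limma called 0 of the 41 genes, and only 0.00379% of all probe sets. At an unadjusted p under 0.05, 0 were higher and 1 was lower, TFPI2.

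In ruptured against unruptured 36 h follicles, 10 of the 41 genes were called, where 9.82% of all probe sets were. Of these, 8 rose and 2 fell, where 4.83% of all probe sets were called higher and 4.99% lower. F3, F2RL1, TFPI2, PLAUR, CD55, PLAU, F2RL2 and THBD rose, and C5 and F13B fell. With only the arrays of these groups in the fit, 5 of the 10 were called, F3, F2RL1, TFPI2, CD55 and THBD. PLAUR (adjusted p = 0.0598), PLAU (0.0818), F2RL2 (0.129), C5 (0.122) and F13B (0.157) were not. The median change of the 41 genes was 0.03, against -0.03 over all probe sets. This comparison shares no array with that of 12 h and 0 h. The 2 comparisons are not independent, however, as the same fit to all arrays gave them a shared estimate of each probe set's spread. Both called 6 genes higher, CD55, F2RL1, F3, PLAU, TFPI2 and THBD, which were 66.7% of the 9 genes at 12 h and 75% of the 8 in ruptured follicles. Over all probe sets, 1020 were called higher in both, 45.2% of the 2259 at 12 h and 40% of the 2549 in ruptured follicles.

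**Figure D1:**
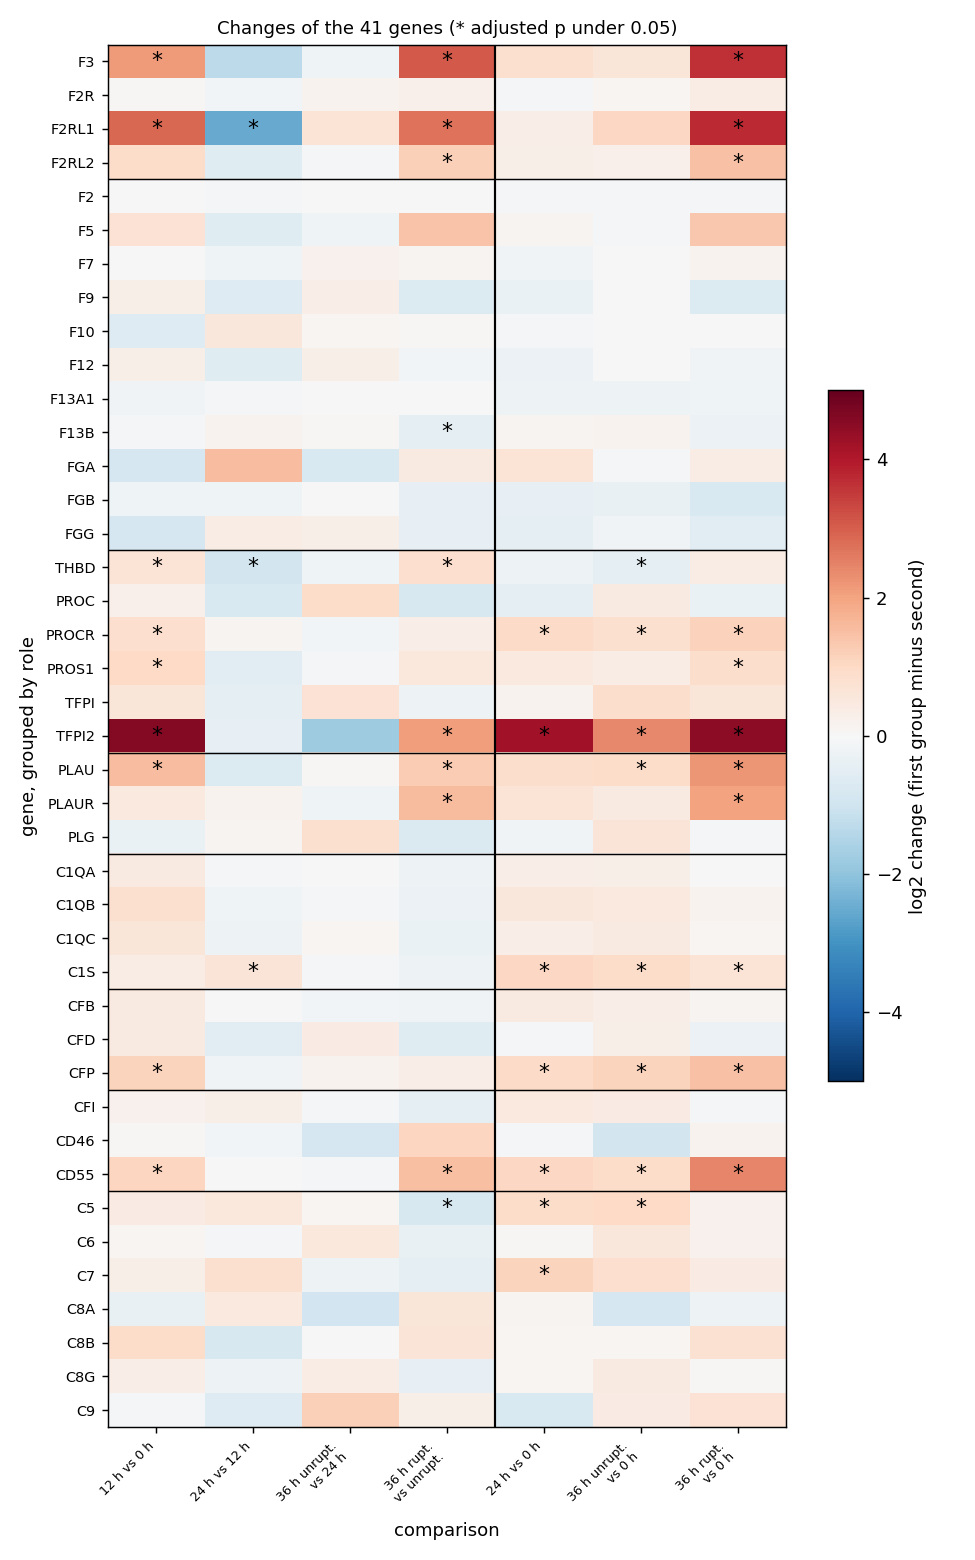
Log2 change of each of the 41 genes (rows, grouped by role from tissue factor and receptors at the top to terminal complement at the bottom) in the 4 comparisons of successive groups (left) and the 3 further comparisons with 0 h (right). Red is higher and blue lower in the group named first, and a star marks an adjusted p under 0.05. The stars of 12 h against 0 h and of ruptured against unruptured follicles fall on F3, F2RL1, TFPI2, THBD, PLAU and CD55 in both columns, and no gene has one in unruptured 36 h against 24 h.

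F3 codes for tissue factor, the cell-surface protein that starts clotting. Its log2 intensity at 0 h ran from 6.99 to 9.71 with a median of 7.76 (n = 6). It was 9.75, 10.05, 10.12 and 10.23 at 12 h, and 8.44, 9.0, 8.83 and 8.63 at 24 h. It was 8.36, 8.20, 7.70 and 9.81 in unruptured 36 h follicles, and 11.73, 11.86, 11.09 and 11.60 in ruptured ones. All ruptured follicles lay above every other array, and all 12 h follicles lay above every 0 h follicle, of which replicate 1 was the highest. The 24 h and unruptured values lay inside the range at 0 h, but for the fourth unruptured follicle at 9.81. F3 rose 4.33-fold at 12 h (2.12 ± 0.43 SE, adjusted p = 0.00405) and was 8.29-fold higher in ruptured than in unruptured follicles (3.05 ± 0.48, adjusted p = 0.000497). The change between 24 h and 12 h, -1.31 ± 0.48, was not called (adjusted p = 0.113), although all 24 h values were below all 12 h values.

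F2RL1 codes for protease-activated receptor 2, which is cut by trypsin-like proteases and by the complex of tissue factor with factor VII. Its log2 intensity at 0 h ran from 6.84 to 8.84 with a median of 7.43. It was 11.0, 9.62, 9.92 and 11.12 at 12 h, and 7.86, 8.35, 7.56 and 7.80 at 24 h. It was 7.61, 8.46, 9.11 and 9.11 in unruptured follicles, and 11.12, 11.44, 11.27 and 11.34 in ruptured ones. The 12 h and ruptured follicles were high in every array and did not overlap the other groups. The 24 h follicles were back inside the range at 0 h, and the ruptured group was the tightest, with an SD of 0.13. F2RL1 rose 7.30-fold at 12 h (2.87 ± 0.38 SE, adjusted p = 0.000124), fell by 2.52 ± 0.42 between 24 h and 12 h (adjusted p = 0.0013) and was 6.58-fold higher in ruptured than in unruptured follicles (2.72 ± 0.42, adjusted p = 0.000424). Its second probe set was called in the same directions.

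The other thrombin-type receptors moved less. F2RL2, protease-activated receptor 3, which in mouse platelets helps thrombin cut another receptor, averaged 5.13 ± 0.57 (SD, n = 6) at 0 h, 6.04 ± 0.39 at 12 h, 5.42 ± 0.21 at 24 h, with 5.37 ± 0.62 in unruptured follicles and 6.58 ± 0.46 in ruptured ones. It was higher in ruptured than in unruptured follicles (1.2 ± 0.34 SE, adjusted p = 0.0283), but the groups overlapped. The call was lost without unruptured replicate 2 or 3 or ruptured replicate 5, 6 or 8, with an adjusted p of up to 0.0946, and the second probe set of F2RL2 was not called (0.16). F2R, the main thrombin receptor, averaged 8.40 at 0 h, 8.46 at 12 h, 8.32 at 24 h, with 8.49 in unruptured follicles and 8.75 in ruptured ones and was called nowhere. Its difference between ruptured and unruptured follicles had a 95% interval of -0.35 to 0.87. The second probe set of F2R, with a mean of 6.56, was not called either. It differed by 1.36 ± 0.52 (SE) at 12 h (adjusted p = 0.12) and by -1.36 ± 0.57 between 24 h and 12 h (adjusted p = 0.188).

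TFPI2 codes for tissue factor pathway inhibitor 2, a matrix-bound inhibitor of plasmin and other serine proteases. It had the largest change of the 41 genes. Its log2 intensity at 0 h ran from 6.66 to 8.37 with a median of 7.21. It was 12.11, 11.80, 11.57 and 12.32 at 12 h, and 10.99, 11.51, 11.58 and 12.11 at 24 h. It was 9.42, 9.47, 10.84 and 9.29 in unruptured follicles, and 11.96, 11.53, 12.24 and 11.59 in ruptured ones. Every follicle after hCG lay above every 0 h follicle, and every unruptured 36 h follicle lay below every 24 h, 12 h and ruptured follicle. TFPI2 rose 24.2-fold at 12 h (4.60 ± 0.34 SE, adjusted p = 4.32e-07) and was 4.21-fold higher in ruptured than in unruptured follicles (2.07 ± 0.37, adjusted p = 0.00148). The lower level in unruptured 36 h than in 24 h follicles, -1.79 ± 0.37, had an adjusted p of 0.316 and was not called. The 3 brightest of its 5 probe sets were called in the same direction in both comparisons, while a dimmer one with a mean of 4.84 went the other way against 0 h and was called lower at 24 h (-1.40, adjusted p = 0.0285) and in ruptured follicles (-1.07, adjusted p = 0.0402).

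THBD codes for thrombomodulin, the endothelial receptor that turns thrombin into an activator of protein C. Its log2 intensity at 0 h ran from 7.88 to 8.43 with a median of 8.22. It was 9.0, 8.84, 8.77 and 8.85 at 12 h, and 7.67, 8.02, 8.13 and 7.90 at 24 h. It was 7.64, 7.72, 7.64 and 7.89 in unruptured follicles, and 8.87, 8.32, 8.45 and 8.61 in ruptured ones. The 12 h follicles lay above all 0 h and all 24 h follicles, and the ruptured follicles lay above all unruptured ones but overlapped 0 h. THBD rose by 0.68 ± 0.13 (SE) at 12 h (adjusted p = 0.00228), fell by 0.93 ± 0.14 between 24 h and 12 h (adjusted p = 0.000701) and was 0.84 ± 0.14 higher in ruptured than in unruptured follicles (adjusted p = 0.000911). Of the 3 other probe sets of THBD, 2 were called at 12 h, 2 between 24 h and 12 h and 1 in ruptured against unruptured follicles, all in the same directions, with changes at 12 h of 0.19 to 1.91.

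Of the genes of the protein C pathway downstream of thrombomodulin, PROCR and PROS1 rose at 12 h and PROC was not called. PROCR, the endothelial receptor that presents protein C, averaged 5.76 ± 0.40 (SD) at 0 h, 6.59 ± 0.22 at 12 h, 6.73 ± 0.23 at 24 h, with 6.58 ± 0.13 in unruptured follicles and 6.90 ± 0.06 in ruptured ones. It rose at 12 h (0.83 ± 0.18 SE, adjusted p = 0.00499) and stayed above every 0 h value in all 16 later arrays. PROS1, the cofactor protein S, averaged 9.09 ± 0.34, 10.07 ± 0.16, 9.56 ± 0.48, 9.45 ± 0.14 and 9.97 ± 0.45 in the same order of groups. It rose at 12 h (0.99 ± 0.22, adjusted p = 0.00798) with no overlap of the groups, while the later comparisons of successive groups did not call it. Against 0 h it was not called at 24 h (0.47, adjusted p = 0.309) or in unruptured follicles (0.36, adjusted p = 0.457). PROC, protein C itself, was dim, with group means of 1.92 to 2.86, and TFPI, the inhibitor of tissue factor, had group means of 8.71 to 9.60 and SDs of up to 0.95. Neither was called anywhere.

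PLAU codes for urokinase, the protease that turns plasminogen into plasmin at cell surfaces. It averaged 6.30 ± 0.43 (SD) at 0 h, 7.84 ± 0.33 at 12 h, 7.16 ± 0.31 at 24 h, with 7.23 ± 0.10 in unruptured follicles and 8.51 ± 0.65 in ruptured ones. PLAU rose at 12 h (1.54 ± 0.26 SE, adjusted p = 0.000988) and was 2.43-fold higher in ruptured than in unruptured follicles (1.28 ± 0.29, adjusted p = 0.00728), and both its probe sets were called in both comparisons. PLAUR, the urokinase receptor, averaged 6.35 ± 0.25 at 0 h, 6.85 ± 0.45 at 12 h, 7.02 ± 0.17 at 24 h, with 6.80 ± 0.39 in unruptured follicles and 8.37 ± 0.61 in ruptured ones. Among the comparisons of successive groups it was called only between ruptured and unruptured follicles (1.58 ± 0.27, adjusted p = 0.00117), and all 4 ruptured follicles lay above every other array. PLG, plasminogen, was dim at group means of 2.71 to 3.66 and was not called.

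**Figure D2:**
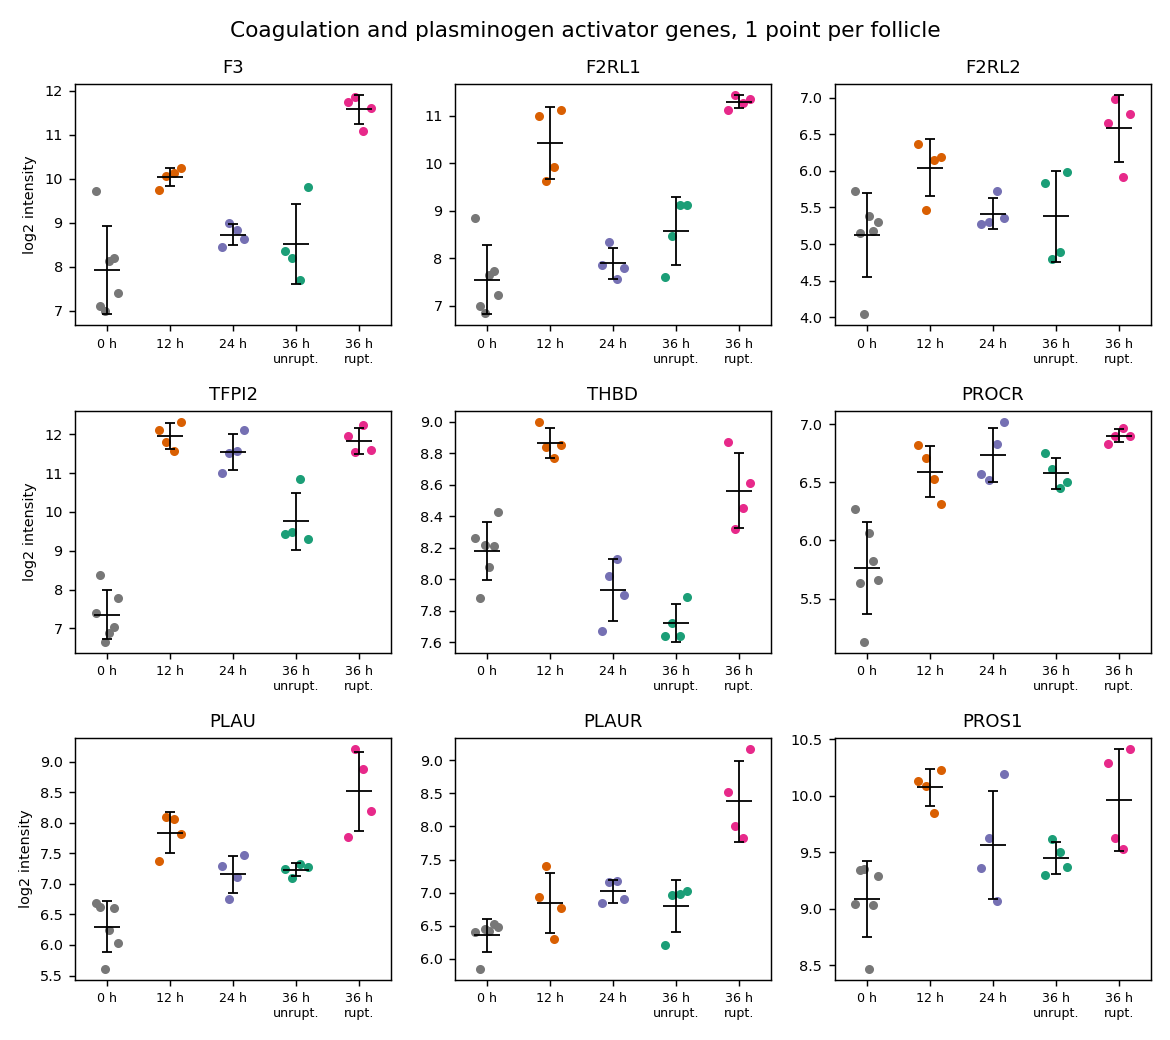
Log2 intensity of 9 coagulation and plasminogen activator genes in each of the 22 follicles (points), with the group mean and SD (long and short bars), for 0 h (n = 6), 12 h, 24 h, unruptured and ruptured 36 h follicles (n = 4 each). Axes differ between panels and do not start at 0. F3, F2RL1 and PLAUR are highest in the 4 ruptured follicles, and TFPI2 and PLAU lie above every 0 h value in all 16 follicles after hCG.

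Of the 11 genes of plasma clotting factors and fibrinogen, limma called 0 at 12 h against 0 h (also 0 at an unadjusted p under 0.05), where 9.33% of all probe sets were called. It called 1 of the 11 in ruptured against unruptured follicles, a share close to the 9.82% of all probe sets. That was F13B, a carrier subunit of the fibrin cross-linking factor XIII, which averaged 8.11 at 0 h, 8.04 at 12 h, 8.23 at 24 h, with 8.28 in unruptured follicles and 7.83 in ruptured ones. F13B fell by 0.45 ± 0.11 (SE) in ruptured follicles against unruptured ones (adjusted p = 0.0148), and the call was lost without ruptured replicate 5 (adjusted p = 0.0554). The dim second probe set of F13B, with a mean of 1.54, was not called and its difference was 1.08. F5, the cofactor that speeds thrombin formation, averaged 6.94 ± 0.85 (SD) in ruptured and 5.51 ± 0.62 in unruptured follicles. The groups did not overlap, and the difference of 1.43 ± 0.51 (SE, adjusted p = 0.0877) was not called, with a 95% interval of 0.36 to 2.50. F13A1, the catalytic subunit of factor XIII, had group means of 8.02 to 8.28, and those of F2 (prothrombin) and F7 were 4.97 to 5.08 and 5.00 to 5.37.

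F9, F10 and F12, which code for plasma protease zymogens, and FGA, FGB and FGG, the fibrinogen chains, all had means under the median of the arrays. Their group means lay between 1.30 and 3.68, with within-group SDs of up to 1.65, and none of them was called. As most of these genes are known for their expression in the liver, markers of hepatocytes were measured beside them. Of 4 measured markers, 3 had means under the median, and the brightest, HP, had group means of 4.99 to 6.28. The summed intensity of all 4 was 39.4 to 264 at 0 h, 61.5 to 86.1 at 12 h and 57.5 to 94.1 at 24 h. It was 59.3 to 1399 in unruptured follicles and 60.8 to 490 in ruptured ones. Of the 4, 1 was called higher and 0 lower at 12 h against 0 h, the dim SERPINC1 (1.17 ± 0.36 SE, adjusted p = 0.0491).

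C1S codes for a serine protease of C1, the complex that starts the classical pathway. Its log2 intensity at 0 h ran from 10.54 to 11.16 with a median of 10.79. It was 10.94, 11.32, 11.54 and 10.94 at 12 h, and 11.86, 11.94, 11.59 and 11.90 at 24 h. It was 11.86, 11.69, 11.50 and 11.89 in unruptured follicles, and 11.44, 11.58, 11.31 and 11.61 in ruptured ones. All 24 h follicles lay above all 12 h follicles, whereas 12 h and 0 h overlapped. C1S rose by 0.64 ± 0.16 (SE) between 24 h and 12 h (adjusted p = 0.0191), a call that was lost on leaving out replicate 1 or 4 of 12 h, or replicate 1 or 2 of 24 h, with an adjusted p of up to 0.0715. Against 0 h it was higher at 24 h (1.02 ± 0.14, adjusted p = 0.000504), in unruptured follicles (0.93 ± 0.14, adjusted p = 0.000976) and in ruptured follicles (0.68 ± 0.14, adjusted p = 0.00275). The second probe set of C1S, with a mean of 10.64, also rose between 24 h and 12 h (1.02 ± 0.14, adjusted p = 0.000424). It was called higher in each of these comparisons with 0 h as well.

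C1QA, C1QB and C1QC code for the chains of C1q, the antibody-binding part of C1, which macrophages are known to make. Their mean changes at 12 h against 0 h were 0.43, 0.80 and 0.60, and none was called (adjusted p = 0.456, 0.143 and 0.191). The summed intensity of 11 measured macrophage markers, among them CD68, CD14 and TYROBP, was 2246 to 6696 at 12 h and 1476 to 2685 at 0 h. Of the 11, 5 rose and 0 fell at 12 h in limma's test, where 4.28% of all probe sets were called higher and 5.05% lower. At an unadjusted p under 0.05, 9 were higher and 0 lower. The part of macrophage RNA in the 12 h changes was not tested. In ruptured against unruptured follicles 0 of the 11 was called (0 also at an unadjusted p under 0.05), and their summed intensity was 2361 to 4093 in ruptured and 2579 to 3669 in unruptured follicles.

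CFP codes for properdin, which stabilises the alternative pathway's convertase and is known as a product of leukocytes. It averaged 5.27 ± 0.21 (SD) at 0 h, 6.40 ± 0.43 at 12 h, 6.23 ± 0.33 at 24 h, with 6.40 ± 0.51 in unruptured follicles and 6.73 ± 0.21 in ruptured ones. CFP rose at 12 h (1.13 ± 0.22 SE, adjusted p = 0.0031) and lay above every 0 h value in all 16 later follicles. CFB and CFD, the proteases factor B and factor D of the same pathway, had group means of 8.67 to 9.11 and 7.96 to 8.67 and were not called. For CFD the ruptured follicles lay below all unruptured ones (-0.59 ± 0.35, adjusted p = 0.362). A dimmer probe set of CFB, with a mean of 5.57, was called higher against 0 h at 24 h (1.38, adjusted p = 0.0402), in unruptured follicles (1.45, adjusted p = 0.0257) and in ruptured follicles (1.28, adjusted p = 0.0199).

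CD55 codes for decay-accelerating factor, which takes complement convertases apart on the cell's own surface. It averaged 7.15 ± 0.18 (SD) at 0 h, 8.22 ± 0.32 at 12 h, 8.19 ± 0.70 at 24 h, with 8.08 ± 0.37 in unruptured follicles and 9.59 ± 0.28 in ruptured ones. CD55 rose at 12 h (1.07 ± 0.25 SE, adjusted p = 0.0102) and was 2.86-fold higher in ruptured than in unruptured follicles (1.52 ± 0.27, adjusted p = 0.00163). All ruptured follicles lay above every other array, and all 16 follicles after hCG lay above every 0 h follicle. Of the 5 other probe sets of CD55, 2 were called higher in each of these comparisons. CFI, the protease factor I that inactivates C3b and C4b, averaged 7.35, 7.56, 7.85, 7.74 and 7.26 from 0 h to ruptured follicles. It was called by the F test alone (adjusted p = 0.0301). Its ruptured follicles lay below all unruptured ones, and the difference of -0.48 ± 0.16 was not called (adjusted p = 0.067). CD46, a surface cofactor of factor I, was dim at group means of 3.06 to 4.14 and was not called.

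Of the terminal complement genes, which code for the pore-forming complex, C5 and C7 were called. C5 averaged 4.12 ± 0.44 (SD) at 0 h, 4.51 ± 0.39 at 12 h, 5.04 ± 0.14 at 24 h, with 5.13 ± 0.13 in unruptured follicles and 4.31 ± 0.45 in ruptured ones. C5 fell by 0.82 ± 0.25 (SE) in ruptured follicles against unruptured ones (adjusted p = 0.0473). It is the only called gene of the 41 with a mean under the median, and the call was lost without any of 7 of the 8 arrays compared, with an adjusted p of up to 0.146. C7, which inserts the growing complex into membranes, averaged 8.02 ± 0.42, 8.33 ± 0.55, 9.12 ± 0.50, 8.87 ± 0.39 and 8.43 ± 0.37 in the same order of groups. It was higher at 24 h than at 0 h (1.10 ± 0.28, adjusted p = 0.038), a call that was lost without any of 8 of the 10 arrays compared, with an adjusted p of up to 0.148. C6, C8A, C8B, C8G and C9, the other parts of the pore, had group means of 1.11 to 4.87 and were not called.

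**Figure D3:**
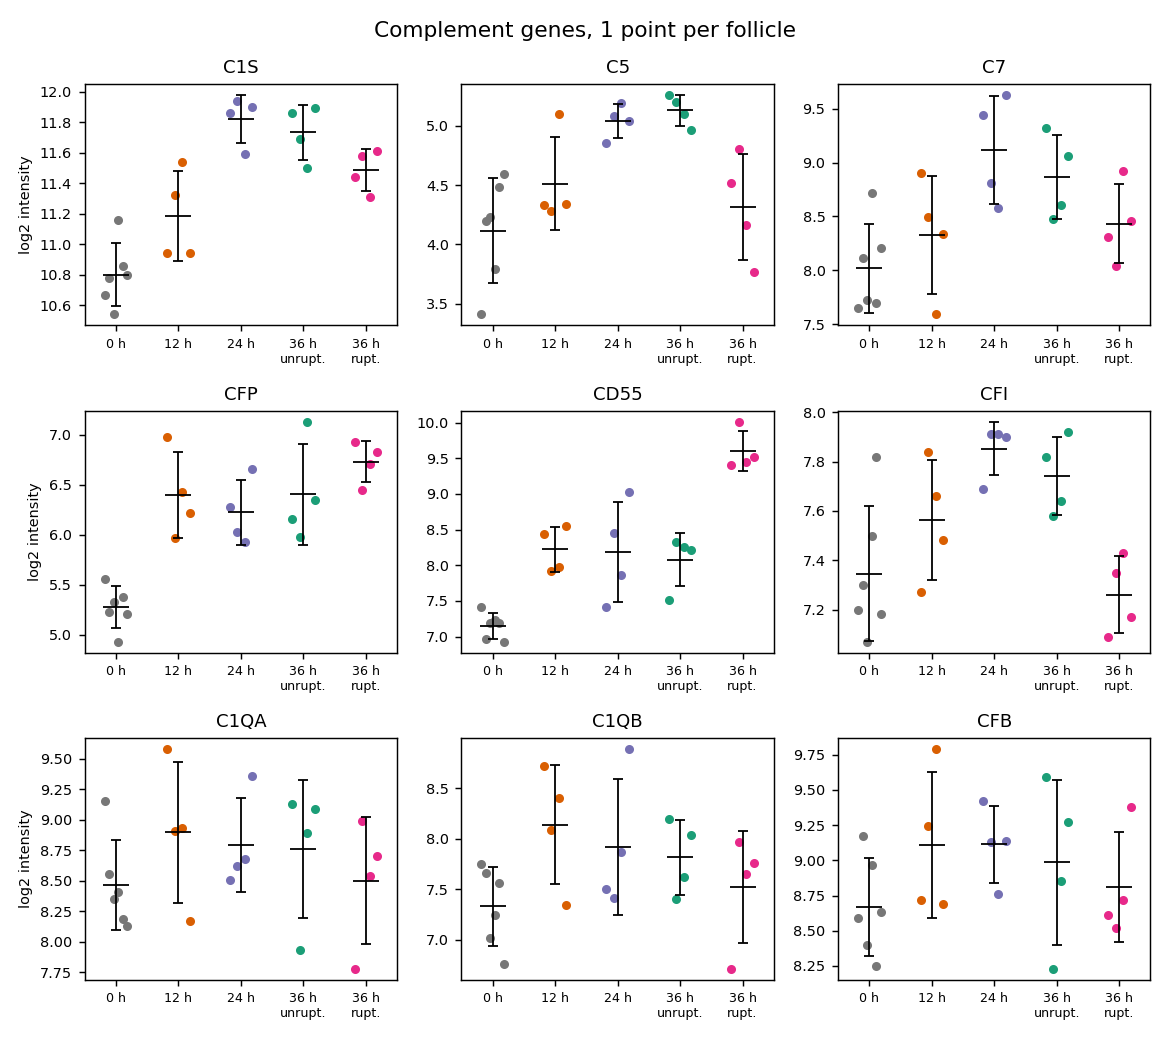
Log2 intensity of 9 complement genes in each of the 22 follicles (points), with the group mean and SD (long and short bars), for 0 h (n = 6), 12 h, 24 h, unruptured and ruptured 36 h follicles (n = 4 each). Axes differ between panels and do not start at 0. CD55 is highest in the 4 ruptured follicles, CFP lies above every 0 h value in all 16 later follicles, C1S has its highest group means at 24 h and in unruptured follicles, and the groups overlap for C1QA, C1QB and CFB.

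Against 0 h, 7 of the 41 genes were called at 24 h, where 3.36% of all probe sets were (1.66% higher and 1.69% lower), 8 in unruptured follicles (4.72% of all, 2.08% higher and 2.65% lower) and 11 in ruptured follicles (15.8% of all, 7.01% higher and 8.78% lower). These comparisons share the 0 h arrays. All 7 at 24 h rose, TFPI2 by 4.19, C7 by 1.10, CD55 by 1.04, C1S by 1.02, PROCR by 0.97, CFP by 0.95 and C5 by 0.92. In unruptured follicles TFPI2 (2.40), CFP (1.13), C5 (1.01), PLAU (0.93), C1S (0.93), CD55 (0.92) and PROCR (0.82) rose, and THBD fell by 0.46 (adjusted p = 0.0485). The other 3 probe sets of THBD were not called there, and 2 of them differed in the opposite direction (0.67 and 0.75). In ruptured follicles all 11 rose, led by TFPI2 (4.48), F2RL1 (3.75, 13.4-fold) and F3 (3.65, 12.5-fold), and followed by CD55 (2.44), PLAU (2.21), PLAUR (2.02), CFP (1.46), F2RL2 (1.45), PROCR (1.14), PROS1 (0.88) and C1S (0.68). The brightest probe set of THBD was not called in ruptured follicles against 0 h (0.38, adjusted p = 0.0511), while 2 others of THBD were called higher (1.61, adjusted p = 0.000386, and 1.59, adjusted p = 0.000511). Beside these changes, 3 of 5 neutrophil and monocyte markers (median change 1.89) and 2 of 8 platelet and red cell markers (median change 0.73) were called higher in ruptured follicles against 0 h, with none lower, and their part in the changes was not tested. The count at 24 h dropped to 4 without 24 h replicate 1 or 2 and to 3 without 24 h replicate 4. The count in unruptured follicles dropped to 5 without 0 h replicate 3, 4 or 6 or unruptured replicate 2, 3 or 4, and THBD, PLAU and CD55 lost their calls there on leaving out most single arrays, with adjusted p of up to 0.134, 0.117 and 0.114.

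Of the genes, 5 of 41 lay above every 0 h value in all 16 follicles after hCG, TFPI2, PLAU, CD55, CFP and PROCR, where 0.493% of all probe sets did, and 0 lay below every 0 h value in all 16, where 0.656% did. In 4 of 41, F3, F2RL1, PLAUR and CD55, all ruptured follicles lay above every other array, where 0.811% of all probe sets did. No test was made of these counts.

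**Figure D4:**
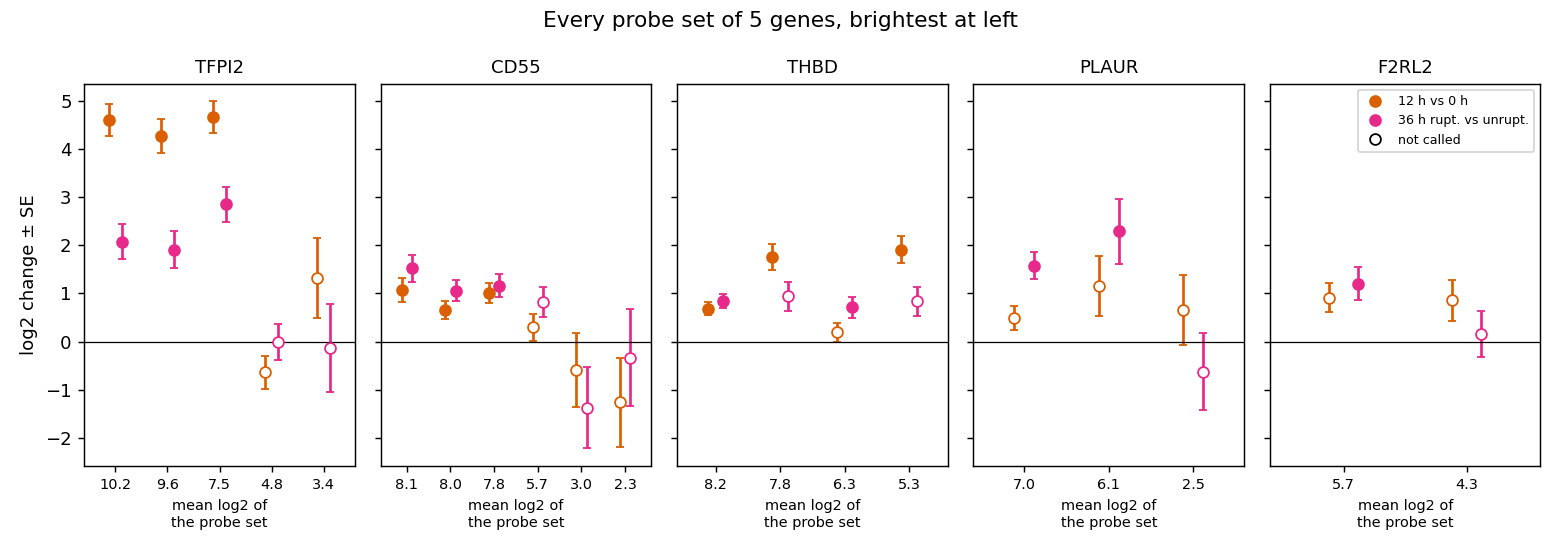
Log2 change (± SE) of every probe set of TFPI2, CD55, THBD, PLAUR and F2RL2 at 12 h against 0 h (orange) and in ruptured against unruptured 36 h follicles (pink), ordered from the brightest probe set at left to the dimmest, with the mean log2 intensity of each on the horizontal axis. Filled points were called. The 3 brightest probe sets of TFPI2 and of CD55 were called higher in both comparisons, and the dimmer ones of each were not called in either. At 12 h the SE was 0.84 for the dimmest probe set of TFPI2 and 0.93 for that of CD55. It was 0.34 for the TFPI2 probe set with a mean of 4.84, whose change was -0.64. For the CD55 probe set with a mean of 5.66 it was 0.29.

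Other genes of the same pathways were described from lists that are not part of the 41. Of 32 further coagulation and fibrinolysis genes, 26 were measured. At 12 h against 0 h, 2 rose and 1 fell, where 4.28% of all probe sets were called higher and 5.05% lower. The 2 were SERPINC1, the plasma inhibitor antithrombin, which is dim here (1.17 ± 0.36 SE, adjusted p = 0.0491), and ANXA2, a cell-surface binder of plasminogen (0.64 ± 0.16, adjusted p = 0.0171). SERPINE2, an inhibitor of thrombin and urokinase, fell by 0.48 ± 0.14 (adjusted p = 0.0296). Between 24 h and 12 h limma called 0 (3 higher and 2 lower at an unadjusted p under 0.05), and likewise 0 between unruptured 36 h and 24 h follicles (2 higher and 0 lower). In ruptured against unruptured follicles, SERPINB2, the plasminogen activator inhibitor 2, rose by 3.69 ± 0.80 (adjusted p = 0.00589), with means of 7.11 in ruptured and 3.42 in unruptured follicles. ANXA2 also rose (0.58 ± 0.18, adjusted p = 0.0441), and GAS6, a relative of protein S, fell by 0.93 ± 0.25 (adjusted p = 0.0238). Over all probe sets, 4.83% were called higher and 4.99% lower in that comparison.

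Of 35 further complement genes, 23 were measured. At 12 h against 0 h, 4.28% of all probe sets were called higher and 5.05% lower. Of the 23, 4 rose and 0 fell (7 higher and 0 lower at an unadjusted p under 0.05). They were FCN1, a leukocyte starter of the lectin pathway (2.33 ± 0.40 SE, adjusted p = 0.00102), ITGB2, the shared chain of leukocyte integrins and complement receptors (1.38 ± 0.32, adjusted p = 0.0103), C5AR1, the receptor for C5a (1.35 ± 0.27, adjusted p = 0.00345), and, named after its value was seen, SERPING1, the C1 inhibitor (0.63 ± 0.16, adjusted p = 0.0166). C1QBP, a C1q-binding protein found mainly in mitochondria, fell by 0.71 ± 0.13 between 24 h and 12 h (adjusted p = 0.00316) and was 0.67 ± 0.13 higher in ruptured than in unruptured follicles (adjusted p = 0.00346). No other measured gene of the list was called in these 2 comparisons, and limma called 0 between unruptured 36 h and 24 h follicles (0 higher and 1 lower at an unadjusted p under 0.05).

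Blood in the ruptured follicle was looked at through 8 measured platelet and red cell markers. Their summed intensity was 297 to 379 in ruptured and 189 to 279 in unruptured follicles, without overlap, and 0 of the 8 was called in limma's test (1 was higher at an unadjusted p under 0.05). The median change of the 8 was 0.67, against -0.03 over all probe sets. PF4, PPBP, GP1BA, TUBB1, HBB and ALAS2 had higher means in ruptured follicles, with HBB at 6.11 against 5.46 in unruptured ones. GP9 (4.55 in ruptured, 4.87 in unruptured) and ITGA2B (5.35 and 5.38 in the same order) had lower ones. The summed intensity of 5 neutrophil and monocyte markers was 178 to 518 in ruptured and 139 to 291 in unruptured follicles, where 0 of the 5 was called (0 also at an unadjusted p under 0.05). That of 11 endothelial markers was 1705 to 2387 in ruptured and 1727 to 2279 in unruptured follicles. Of the 11, 0 were called higher and 1 lower in limma's test, and 0 were higher and 2 lower at an unadjusted p under 0.05. The granulosa markers, with the ranges given above, did not overlap between ruptured and unruptured follicles. Of the 7, INHBA rose (11.65 in ruptured and 8.45 in unruptured follicles) and the others were not called. At an unadjusted p under 0.05, 3 were higher and 0 lower, and the median change of the 7 was 0.83. CYP19A1, INHA, INHBB and FST also had higher means in ruptured follicles. AMH (6.04 in ruptured, 6.39 in unruptured) and HSD17B1 (6.76 and 7.20 in the same order) had lower ones. The part of blood cells, endothelial cells or granulosa cells in the changes at rupture was not tested.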

How the data were processed

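RNA of 22 macaque follicles was measured on Affymetrix arrays, from 2 µg of total RNA each per the labels' protocols. The deposited intensities, 1 per probe set and array, were made with RMA per the submitters' processing notes (no version in the sources used here). They ran from 0.0361 to 15137, a linear scale although RMA commonly writes log2, so log2 was taken here. Tests ran on 52766 probe sets, without 99 controls. Symbols are those of the platform annotation, in which 24956 probe sets had 1 symbol, 361 several and 27449 none. All 41 genes matched the RefSeq gene table given.

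Group means over all 22 arrays were fitted with limma 3.58.1 in R 4.3.3 (lmFit, eBayes), two-sided, with p-values adjusted by Benjamini and Hochberg's method across the 52766. There were 8 such results, the F test and 7 comparisons. No 2 arrays were identical, and their correlations lay between 0.870 and 0.918. No batch is recorded. No detection call was used, so levels below background cannot be told. The fit was tested on simulated data.

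The members and lists were chosen with earlier results of these data known. All 41 genes are named, those called with their levels and changes. The 3 with the largest called changes per successive comparison have every array after hCG printed, and a range and median at 0 h. At most 3 called genes per further list and comparison are named. Alternatives were an added offset of 16, no dim probe sets, other scalings, the groups compared alone, array weights, a mean-variance trend, a 3' to 5' signal index, a replicate block, no ruptured follicles, and each array left out.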

Additional observations from a re-analysis of the deposited data

Results flagged for a closer look

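Among 80 sets of 4 to 6 values (the 16 called genes in 5 groups), 9 held a follicle far from the rest of its group, and chance gives about 1 in 20. TFPI2 was at 10.84 in unruptured 36 h replicate 3, while the other 3 unruptured follicles were at 9.29 to 9.47. PLAUR was at 6.21 and CD55 at 7.52 in unruptured 36 h replicate 1, below 6.97 to 7.02 and 8.21 to 8.33 in the other 3. PLAUR was at 5.85 in 0 h replicate 2, below 6.41 to 6.52 in the other 5. F2RL2 was at 4.04 in 0 h replicate 3, below 5.15 to 5.72, and at 5.73 in 24 h replicate 3, above 5.28 to 5.35. PROS1 was at 8.47 in 0 h replicate 4, below 9.03 to 9.35. CFI was at 7.69 in 24 h replicate 1, below 7.90 to 7.91, and C5 was at 5.10 in 12 h replicate 3, above 4.28 to 4.34.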

How the results depend on the processing

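Of 48 called changes of the 41 genes, 21 kept their call and direction in every alternative run, 37 did so when each array was left out, and 0 reversed. With only the groups compared in the fit, the count of called genes was 1 for 24 h against 12 h (F3, none of the 3 called with all arrays). It was 5 for ruptured against unruptured follicles and, against 0 h, 3 at 24 h, 4 for unruptured and 11 for ruptured follicles. Each of these fits held fewer arrays, and the cause of the lost calls was not tested. With the 3' to 5' signal index as covariate, the count for unruptured follicles against 0 h was 5, and the cause was not tested. Leaving out 1 array gave 13 to 16 genes in the F test, 9 to 10 for 12 h against 0 h, 2 to 3 for 24 h against 12 h, 0 to 0 for unruptured 36 h against 24 h, 7 to 9 for ruptured against unruptured follicles, 3 to 7 for 24 h against 0 h, 5 to 8 for unruptured and 11 to 12 for ruptured follicles against 0 h.

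Same-numbered replicates of 2 groups did not deviate together, as the correlations of 26 pairs ran from -0.0608 to 0.0584, 0 of them over 0.1. With the number as a replicate block, 18 calls were lost, and the counts against 0 h were 3 for 24 h, 3 for unruptured follicles and 6 for ruptured ones. A sample correlated best with its own number in 9 of 48 cases. Ruptured and unruptured follicles share no numbers, so they had no block fit. Ruptured and 0 h follicles share only numbers 5 and 6, so their block fit compared the groups through those numbers alone. Its lower count therefore cannot be read as an effect of pairing. The depth of arrays is set by their signal, and the 15 dim genes limit what can be said of plasma clotting factors and the terminal pore.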
